A study of Arabidopsis thaliana with 4 samples.

Results

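Transcript levels of the 7 Arabidopsis genes described as histone H3 lysine 4 (H3K4) methyltransferases, *SDG2* (also *ATXR3*), *ATX1*, *ATX2*, *ATX3*, *ATX4*, *ATX5* and *ATXR7* (also *SDG25*), were compared between *s2lb-2* and wild-type (WT) seedlings. The genes were chosen by function and taken by their locus identifiers from a table of 37336 genes, and all 7 passed the filter on low values. Their levels in *s2lb-2* seedlings lay close to those in WT. None of the 7 differed past the threshold of an adjusted p below 0.01. *SDG2* was the only member whose libraries did not overlap between genotypes, a trait of 49.5% of all genes tested. Its mean was 1.13-fold higher in *s2lb-2*, with a 95% interval that includes equality.

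Poly(A) RNA was sequenced from whole 6-day-old seedlings grown in vitro without sugar under long days. The *s2lb-2* line gave 2 libraries and WT Col-0 gave 2 libraries. *s2lb-2* is an insertion allele of *S2Lb*, isolated in the Nossen accession and backcrossed 5 times into Col-0. The genotype field of both *s2lb-2* samples instead gives a line with myc-tagged SDG2, which touches one of the genes described here. The sample titles were followed, and *S2Lb* was read first as a check of them. The level of *S2Lb* cannot show whether myc-tagged SDG2 was also present, and this was not tested. The replicates of a genotype came from different batches of seed, per the study's methods, and each library pooled seedlings. In bulk tissue, fewer cells that express a gene and less RNA per cell cannot be told apart.

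H3K4 methylation marks nucleosomes at the start of transcribed genes, and its trimethylated form accompanies active transcription. The methyl groups are transferred by the SET domain, which in budding yeast is carried by Set1 inside the COMPASS complex, together with WD40-repeat and other core subunits. Plants have several such enzymes: relatives of animal Trithorax (ATX1 to ATX5), the Set1-like ATXR7, and the plant-specific SDG2, which is described as the main source of H3K4 trimethylation. S2Lb is the Arabidopsis relative of the yeast COMPASS subunit Swd2 and was found with SDG2, so the question put to these 7 genes was whether their own transcripts change when *S2Lb* is interrupted.

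The members are separate loci on all 5 chromosomes. On TAIR10.1, *SDG2* (AT4G15180) lies at chr4:8651406-8662587 on the plus strand, *ATX1* (AT2G31650) at chr2:13455272-13462431 on the minus strand and *ATX2* (AT1G05830) at chr1:1754130-1761909 on the plus strand. *ATX3* (AT3G61740) lies at chr3:22850811-22857016 on the minus strand, *ATX4* (AT4G27910) at chr4:13893915-13900630 and *ATX5* (AT5G53430) at chr5:21677146-21684122, both on the plus strand. *ATXR7* (AT5G42400) lies at chr5:16953515-16961245 on the minus strand. The 7 genes have between 20 and 26 exons, and *SDG2* has the longest summed exons, 7855 bases, against 3615 bases in *ATX1*. The deposited table itself holds no coordinates, and its labels name TAIR10, so these positions are those of the reference annotation.

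The catalytic SET domain is the feature that all 7 genes share. To show it, 60 coding bases of each gene around the most conserved motif of the domain were read from the TAIR10.1 genome in the sense of the transcript, with the 4 codons of the motif in capitals. Each stretch is coding sequence that crosses an intron, so its coordinates span more than its 60 bases.
*SDG2* chr4:8659441-8659839, plus strand: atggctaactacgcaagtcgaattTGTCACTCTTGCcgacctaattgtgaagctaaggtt
*ATX1* chr2:13455750-13455888, minus strand: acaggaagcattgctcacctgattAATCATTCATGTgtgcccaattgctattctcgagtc
*ATX2* chr1:1760774-1760922, plus strand: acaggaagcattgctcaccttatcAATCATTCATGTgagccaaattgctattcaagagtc
*ATX3* chr3:22851393-22851524, minus strand: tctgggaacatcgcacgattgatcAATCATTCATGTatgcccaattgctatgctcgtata
*ATX4* chr4:13899862-13900002, plus strand: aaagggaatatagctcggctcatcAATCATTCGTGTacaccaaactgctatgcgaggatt
*ATX5* chr5:21682765-21682918, plus strand: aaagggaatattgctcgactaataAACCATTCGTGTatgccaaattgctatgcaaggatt
*ATXR7* chr5:16954861-16955000, minus strand: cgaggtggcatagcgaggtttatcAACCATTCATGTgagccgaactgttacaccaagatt

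In these stretches *ATX1* and *ATX2* had 54 of 60 bases in common and *ATX4* and *ATX5* had 51 of 60. *SDG2* stood farthest from the rest, with 28 to 31 of 60 bases shared with any other member, and its stretch was placed by local alignment of the encoded protein because the search pattern used for the other 6 genes did not match it.

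Over the whole encoded proteins the members fell into the same pairs. ATX4 and ATX5 had 79.8% identical residues among those aligned, and ATX1 and ATX2 had 73.9%. ATX3 was nearer to ATX4 (53.1%) and ATX5 (52.8%) than to ATX1 or ATX2. ATXR7 shared between 23.9% and 26.0% with each of the ATX proteins. SDG2, with 2335 residues the longest, was aligned locally with the last 160 residues of each of the others, which hold their SET region, and 38.2% to 40.9% of the aligned residues were identical.

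**Figure D1:**
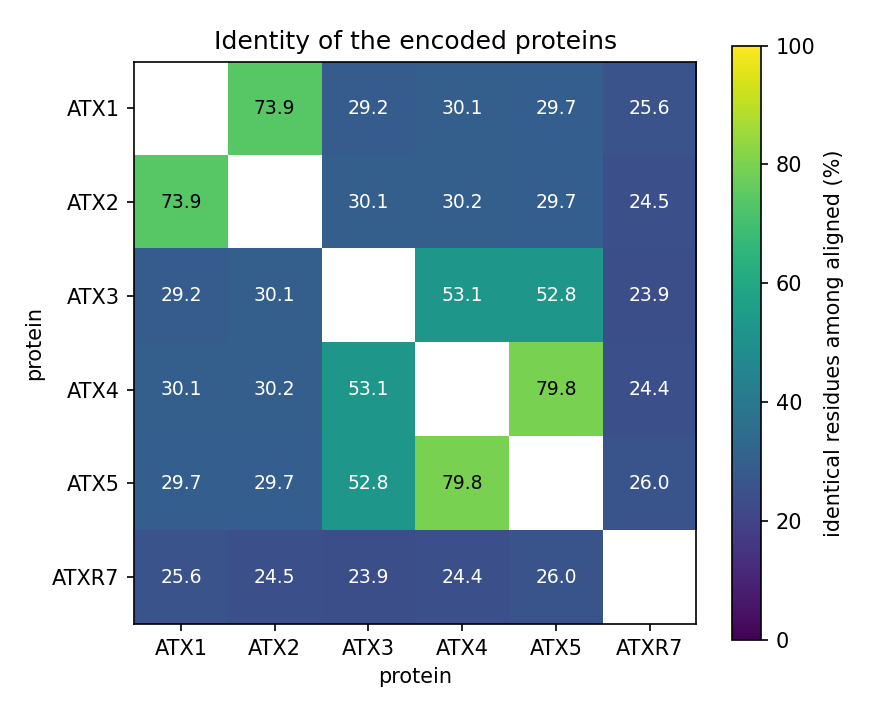
Percent of identical residues among aligned residues for each pair of the 6 proteins other than SDG2, as a coloured grid with the value printed in each cell (0 to 100%). ATX4 with ATX5 (79.8%) and ATX1 with ATX2 (73.9%) stand out, and ATX3 sits nearer to ATX4 and ATX5.

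Such likeness matters for 50-base reads only where runs of identical bases are long. The longest identical coding run between *ATX1* and *ATX2* had 51 bases and crosses an exon junction (chr2:13458175-13458346, minus strand, and chr1:1757977-1758151, plus strand), and that between *ATX4* and *ATX5* had 44 bases (chr4:13898136-13898179 and chr5:21681109-21681152, both plus strand). They are the longest such runs among the members, and only the first can hold a whole 50-base read.
*ATX1* and *ATX2*: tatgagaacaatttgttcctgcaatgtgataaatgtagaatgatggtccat
*ATX4* and *ATX5*: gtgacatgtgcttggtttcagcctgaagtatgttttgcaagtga

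All other pairs shared at most 19 bases in a row. Within exons, 0 of the 50-base words of 6 members occurred elsewhere in the genome. *ATX3* was the exception, with 62 of 2772 words (2.24%) found at other places, among them AT3G62500 and AT5G28340. *ATX5* overlaps AT5G53440 on the opposite strand over 979 bases, 21.5% of its exon length, and the strand column of the counts is not given in the sources used here. AT5G53440 had 1313 and 1417 normalized counts in *s2lb-2* and 1243 and 1351 in WT, more than *ATX5* itself in each library.

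The libraries held 38510743 and 34325097 reads on genes in *s2lb-2* and 35147859 and 39114300 in WT. The values analysed are read counts divided by 1 size factor per library, called normalized counts below. *S2Lb*, the interrupted gene, had 80.8 and 67.2 normalized counts in *s2lb-2* and 1337 and 1613 in WT, a log2 fold change of -4.30 (SE 0.166, limma adjusted p = 0.0062), as the titles say. With any 1 library left out, limma called 0 genes in all, *S2Lb* included. Its paralog *S2La* had 227.5 and 250.3 in *s2lb-2* and 223.6 and 272.2 in WT, with overlapping libraries. Both markers of green tissue and all 3 of root hairs were present in every library. The green-tissue sum was 1071960 and 1013687 normalized counts in *s2lb-2* and 1113140 and 1130184 in WT, lower in both *s2lb-2* libraries. Of its markers, *RBCS1A* was lower without overlap, with 754316 and 741012 in *s2lb-2* against 819735 and 850196 in WT (limma adjusted p = 0.603). *CAB2* overlapped, with 317644 and 272675 in *s2lb-2* against 293405 and 279988 in WT. The root hair sum was 1074 and 1285 in *s2lb-2* and 1113 and 708.8 in WT, and of its markers *EXPA7* was higher without overlap (log2 fold change 0.50, limma adjusted p = 0.249). The 2 flower markers summed to 21.7 and 26.9 in *s2lb-2* and 23.1 and 14.9 in WT, with overlap. Stored-seed markers summed to 170.4 and 29.0 normalized counts in *s2lb-2* and 416.7 and 36.2 in WT, so they were higher in both libraries numbered 1, and the part of these tissues in the values of the members was not tested.

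*SDG2* had 2253 and 2298 normalized counts in *s2lb-2*, against 2010 and 2008 in WT. Both *s2lb-2* libraries lay above both WT libraries, and in each genotype the replicates lay less than 1 counting error (the SD expected of the gap from read counts) apart, with gaps of 0.670 counting errors in *s2lb-2* and 0.0268 in WT. The means were 2275 ± 32.1 in *s2lb-2* and 2009 ± 1.19 in WT (SD, n = 2 each). The difference was 0.18 on the log2 scale (95% interval -0.01 to 0.37), or 1.13-fold (0.991 to 1.29). limma gave an adjusted p of 0.318, so the difference did not pass the threshold. The tests on recovered reads did not call it either, with adjusted p = 0.634 by DESeq2 and 0.35 by the quasi-likelihood test of edgeR. The genotype field of the *s2lb-2* samples names myc-tagged SDG2, and its bearing on these values was not tested. Non-overlap by itself is common in a comparison of 2 libraries with 2. It held for 49.5% of the 23723 genes tested, 24.8% with *s2lb-2* higher and 24.7% with *s2lb-2* lower, and for 1 of the 7 members.

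*ATX1* encodes the Trithorax-like enzyme known for H3K4 trimethylation at *FLC* and at flower organ genes, and *ATX2*, its duplicate, is described as acting on H3K4 dimethylation. *ATX1* had 462 and 483 normalized counts in *s2lb-2*, against 432.4 and 484 in WT. The WT libraries enclosed both *s2lb-2* libraries, and the log2 fold change was 0.05 (95% interval -0.25 to 0.35, limma adjusted p = 0.881) and lay between -0.03 and 0.13 with 1 library left out. *ATX2* had 1248 and 1324 normalized counts in *s2lb-2*, against 1182 and 1387 in WT. Here too both *s2lb-2* values fell between the WT values. The log2 fold change of *ATX2* was 0.01 (95% interval -0.27 to 0.28, limma adjusted p = 0.987), the smallest among the members, with means of 1286 ± 53.6 in *s2lb-2* and 1284 ± 145 in WT (SD, n = 2 each). It lay between -0.11 and 0.12 with 1 library left out.

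*ATX3*, *ATX4* and *ATX5* form the second Trithorax-like branch, and their products are described as acting redundantly in H3K4 di- and trimethylation. *ATX3* had 578.2 and 412.7 normalized counts in *s2lb-2*, against 453.4 and 456.1 in WT. The *s2lb-2* libraries lay on either side of WT, with a gap of 5.24 counting errors, the widest between replicates of any member, whereas the WT libraries differed by 0.0889 counting errors. The log2 fold change was 0.10 (95% interval -0.35 to 0.56, limma adjusted p = 0.819), and without *s2lb-2* replicate 1 it was -0.14.

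*ATX4* had 529.9 and 573 normalized counts in *s2lb-2*, against 515.4 and 540.6 in WT. The ranges overlapped, and the log2 fold change was 0.06 (95% interval -0.21 to 0.34, limma adjusted p = 0.821), between 0.01 and 0.12 with 1 library left out. *ATX5* had 374.3 and 404.4 normalized counts in *s2lb-2*, against 486 and 395.7 in WT. WT replicate 1 was the highest of the 4 libraries, and WT replicate 2 lay between the *s2lb-2* libraries. The log2 fold change of *ATX5* was -0.17 (95% interval -0.54 to 0.20, limma adjusted p = 0.599), and it was -0.02 without WT replicate 1.

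*ATXR7*, whose product is described as promoting *FLC* transcription, had 614.6 and 745.7 normalized counts in *s2lb-2*, against 687.5 and 790.5 in WT. The library numbered 1 was the lower one in both genotypes, and the ranges overlapped. The log2 fold change was -0.12 (95% interval -0.47 to 0.23, limma adjusted p = 0.706), and it was 0.02 without *s2lb-2* replicate 1.

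**Figure D2:**
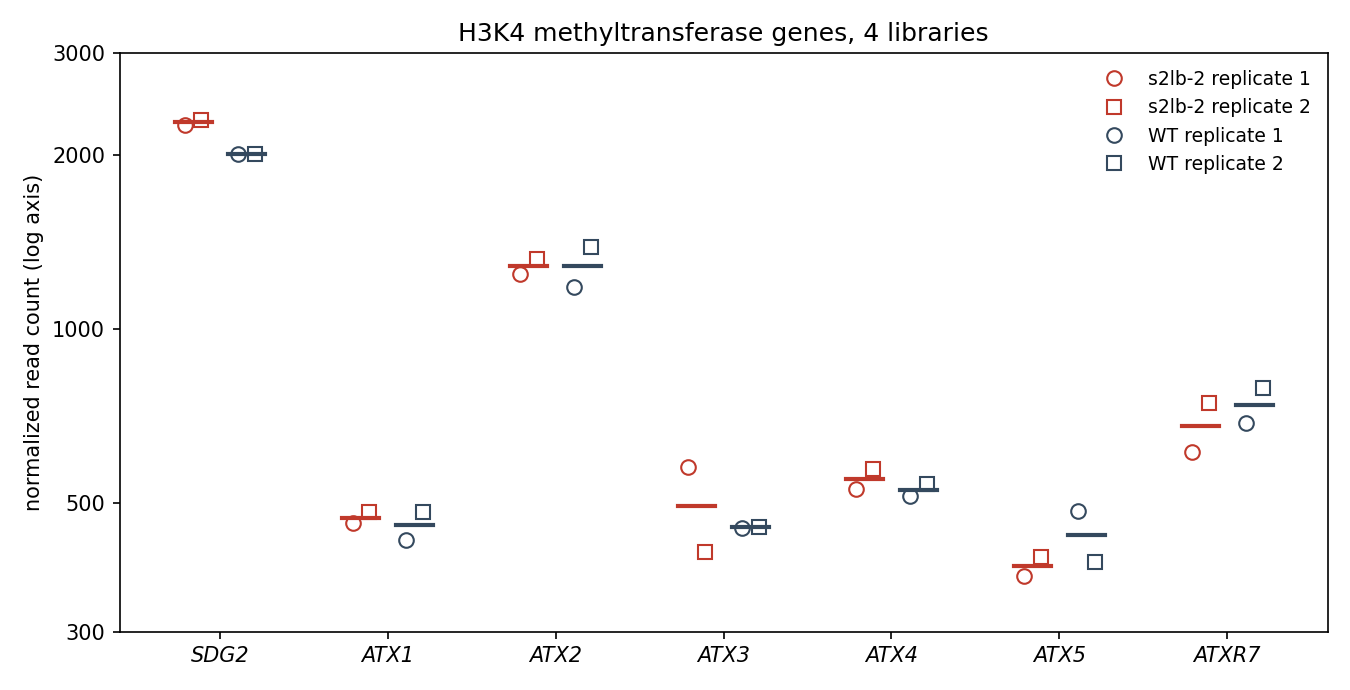
Normalized read count of the 7 genes (log axis), *s2lb-2* in red at the left and WT in dark blue at the right of each gene, with circles for replicate 1, squares for replicate 2 and a bar at the mean. *SDG2* is the only gene whose *s2lb-2* libraries (2253 and 2298) both lie above the WT libraries (2010 and 2008), and the libraries of the other 6 genes overlap. Libraries did not overlap for 49.5% of all genes tested.

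Across the members, 0 of 7 passed an adjusted p below 0.01 with limma, where 0.122% of the 23723 genes tested did (0.0632% higher and 0.059% lower in *s2lb-2*). The count was also 0 at an adjusted p below 0.05, where 1.6% of all genes passed, and at an unadjusted p below 0.05, where 17.4% did. DESeq2 and the quasi-likelihood test of edgeR each called 0 members as well, while they called 3.12% and 0.173% of the genes they tested. With shares this small, a count of 0 among 7 genes differs little from the background at the adjusted thresholds. Of the 7 log2 fold changes, 5 were above 0 and 2 below, with a median of 0.05 against -0.00 over all genes tested. This tally was not stable, since the sign of *ATX2* turned with TMM factors and those of *ATX1*, *ATX2*, *ATX3* and *ATXR7* turned with 1 library left out. The 95% intervals bound what the data allow: their ends ran between 0.688-fold (*ATX5*) and 1.47-fold (*ATX3*). The intervals of *SDG2* (0.991 to 1.29) and *ATX2* (0.829 to 1.22) were narrower, and differences inside a gene's own interval could not be told apart from equality.

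**Figure D3:**
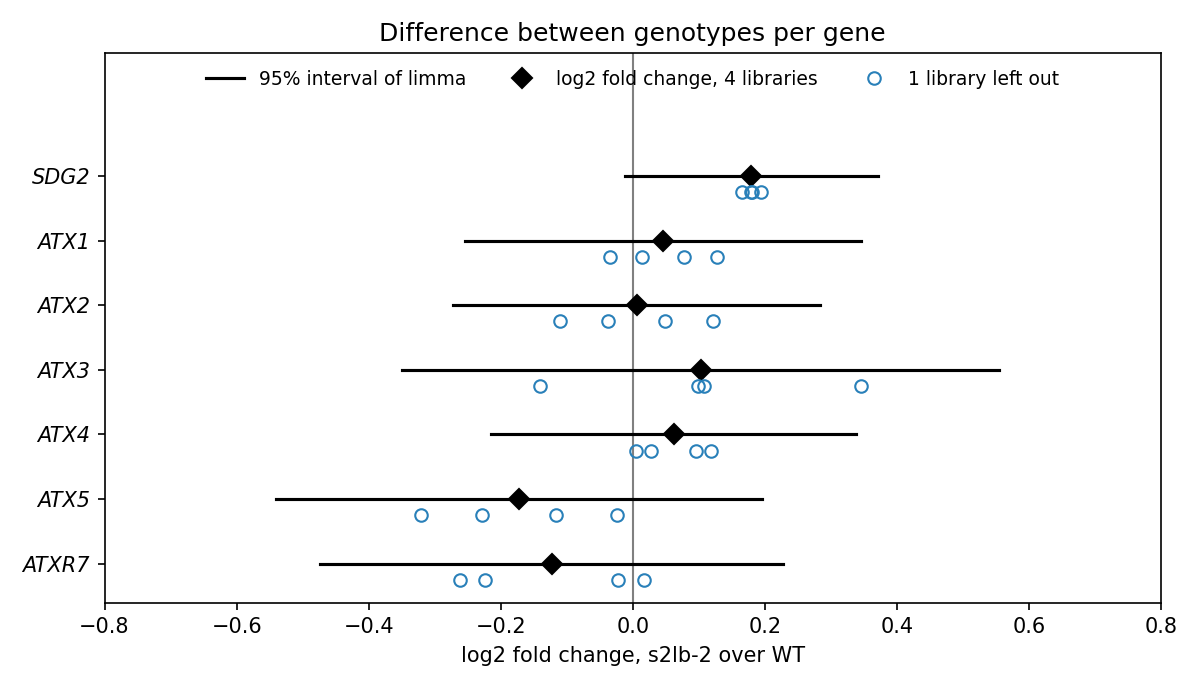
Log2 fold change of each gene, *s2lb-2* over WT, as a black diamond with its 95% interval from limma, and as blue circles with each of the 4 libraries left out in turn. Every interval includes 0, the circles of *SDG2* stay between 0.17 and 0.19, and those of *ATX1*, *ATX2*, *ATX3* and *ATXR7* lie on both sides of 0.

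Set beside genes of similar level (mean within 1.2-fold), the members were not far from the middle in the size of their difference, other than *ATX1*, *ATX2* and *ATX4*, which lay low. The absolute log2 fold change of *SDG2* exceeded that of 64.3% of 1265 such genes, and that of *ATX5* exceeded 56.9% of 1852. The value of *ATX2* exceeded only 2.25% of 1644 genes. The other members lay between 17.2% (*ATX1*) and 47.8% (*ATXR7*).

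Levels of different genes were compared as TPM, a measure of transcript number per exon length scaled to the same total in each library, computed from the recovered reads and the summed exon length. *ATX2* and *SDG2* stood highest. *ATX2* had 12.4 and 14.3 TPM in *s2lb-2* and 11.9 and 14.2 TPM in WT, and *SDG2* had 12.2 and 13.4 TPM in *s2lb-2* and 10.96 and 11.2 TPM in WT. Their ranges over the 4 libraries overlapped, although *ATX2* was the higher one in 4 of 4 libraries. *SDG2*, whose product is described as the main enzyme of H3K4 trimethylation, was therefore not the most abundant transcript of the set by this measure, and its large normalized count goes with its long exons. A step followed: *SDG2* averaged 2.06 times the level of the next gene, *ATXR7*, with no overlap.

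*ATXR7* (mean 5.78 TPM), *ATX1* (5.63 TPM), *ATX4* (5.57 TPM) and *ATX3* (5.38 TPM) could not be ranked, since the ranges of neighbours overlapped and no neighbouring pair kept its order in all 4 libraries. *ATX5* was lowest, with 3.48 and 4.06 TPM in *s2lb-2* and 4.56 and 3.78 TPM in WT, and its range lay below that of *ATX3*. Among all genes with a read, the mean TPM placed *ATX2* at percentile 66.1, *SDG2* at 64.0 and *ATX5* at 44.5, so the family is expressed at middling levels in seedlings. The order within the middle group depended on the length used. By mean per kilobase of coding sequence it ran *ATX4*, *ATXR7*, *ATX3*, *ATX1*, with *ATX2* and *SDG2* still on top and *ATX5* still last. The last place of *ATX5* did not hold in every library by this length. In WT replicate 1 *ATX5* had 155.2 normalized counts per kilobase, above *ATX3* (148.3) and *ATX1* (135.6).

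**Figure D4:**
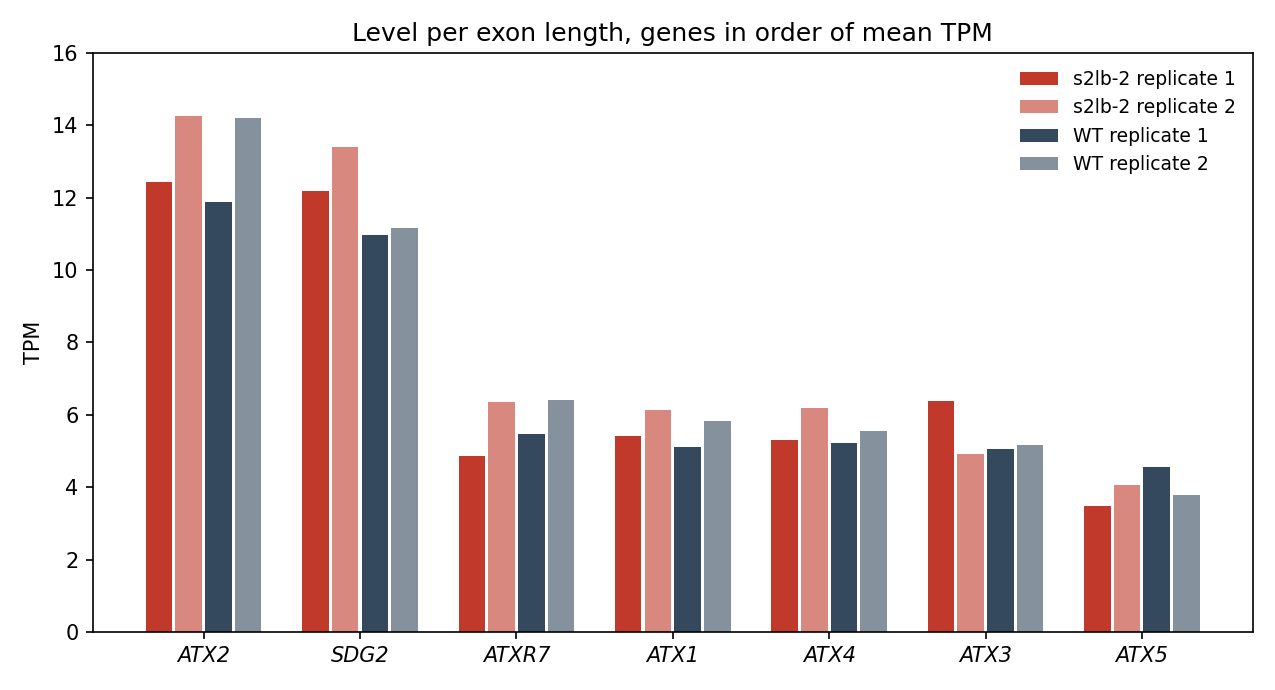
TPM of the 7 genes in the 4 libraries as bars from 0, genes ordered by mean, with *s2lb-2* replicates in red shades left of WT replicates in blue-grey shades. *ATX2* and *SDG2* reach 10.96 to 14.3 TPM in every library, and the other genes lie between 3.48 and 6.42 TPM.

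The summed TPM of the 7 genes was 50.1 and 55.3 in *s2lb-2* and 48.3 and 52.1 in WT, with overlapping libraries. *SDG2* made up 24.3% and 24.2% of this sum in *s2lb-2* and 22.7% and 21.4% in WT. *ATX2* made up 24.9% and 25.8% in *s2lb-2* and 24.6% and 27.3% in WT. The share of *SDG2* was higher in both *s2lb-2* libraries, but it carries the *SDG2* values given above and is no separate result. The share of *ATX2* overlapped. Without *SDG2* the other 6 genes summed to 37.9 and 41.9 TPM in *s2lb-2* and 37.3 and 41.0 TPM in WT.

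Ratios within a library remove its size factor from the comparison. The duplicates *ATX2* and *ATX1* held the steadiest ratio, 2.29 and 2.33 in *s2lb-2* against 2.32 and 2.43 in WT. The ratio of the duplicates *ATX4* and *ATX5* was 1.53 in both *s2lb-2* libraries, against 1.14 and 1.47 in WT. Those values did not overlap, and WT replicate 1, where *ATX5* was high, lay farther from the rest. *ATX4* over *ATX3* was 0.833 and 1.26 in *s2lb-2* against 1.03 and 1.08 in WT, with overlap. *ATX5* over *ATX3* was 0.546 and 0.827 in *s2lb-2* against 0.904 and 0.732 in WT, also with overlap. The ratios with *SDG2* were not among those planned, and both carry the *SDG2* values given above. *SDG2* over *ATXR7* was 2.51 and 2.11 in *s2lb-2* against 2.00 and 1.74 in WT, without overlap. *SDG2* over *ATX2* was 0.979 and 0.941 in *s2lb-2* against 0.922 and 0.785 in WT, also without overlap. Over the 6 ratios examined, an exact two-sided permutation test gave p = 0.333 for the 3 without overlap. That is the smallest it can give with 2 libraries against 2, so none could pass a threshold.

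The spread between replicates differed among the members. The coefficient of variation in *s2lb-2* was 23.6% for *ATX3* and 13.6% for *ATXR7*, and in WT it was 14.5% for *ATX5* and 11.3% for *ATX2*. Those 4 genes had at least 1 pair of replicates more than 3 counting errors apart, while *SDG2*, *ATX1* and *ATX4* had none. With 380 to 2287 reads per member and library, counting error is the smaller part of the error wherever replicates lie this far apart.

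The genomic surroundings of the members were examined because the *s2lb-2* line was made by backcrossing. *S2Lb* lies on chromosome 5, at 4.78 Mb from *ATX5* and 9.51 Mb from *ATXR7*, and the other members lie on other chromosomes. Within 250 kb of the members, limma called at most 3 neighbouring genes at an adjusted p below 0.05, where 1.6% of all genes tested passed. It called 3 of 109 near *ATX5*, 3 of 119 near *ATXR7*, 3 of 141 near *ATX2*, 2 of 135 near *ATX3*, 2 of 122 near *ATX1*, 0 of 143 near *ATX4* and 0 of 102 near *SDG2*. DESeq2 at an adjusted p below 0.01, which 3.12% of all genes passed, called 5 of 132 near *ATX3*, 4 of 104 near *ATX5*, 4 of 114 near *ATXR7*, 3 of 100 near *SDG2*, 3 of 136 near *ATX2*, 2 of 115 near *ATX1* and 0 of 138 near *ATX4*. Remaining Nossen sequence in these windows was not tested.

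The genes that work with or against the H3K4 methyltransferases were read from 4 lists. Of 6 genes for COMPASS core subunits and Swd2 relatives, 1 was called by limma, the interrupted *S2Lb*. The highest of them was *RBL*, the relative of the RbBP5 subunit, at a log2 fold change of 0.04 (limma adjusted p = 0.886), and the median of the list was -0.07. Of 15 other SET domain genes with enough reads, out of 16 listed, 0 were called, at a median log2 fold change of 0.00. They ranged between -0.30 for *ATXR6*, an H3K27 monomethyltransferase gene, and 0.31 for *ATXR4*.

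The 9 genes for H3K4 demethylases, which remove methyl groups from H3K4, gave 0 calls with limma at an adjusted p below 0.01 and 0 at 0.05. Their log2 fold changes had a median of -0.18, with 8 of 9 below 0 (among them *JMJ15*, with at most 3 reads in a library). The median was 0.05 among the methyltransferases and -0.002 over all genes tested, of which 11929 of 23723 lay below 0. The tally of the demethylases was not repeated with 1 library left out. *JMJ18*, a JmjC-domain demethylase gene, was lowest with 422.6 and 334.1 normalized counts in *s2lb-2* against 599.3 and 535.1 in WT (log2 fold change -0.59, limma adjusted p = 0.152). *LDL2*, a gene of the LSD1 type, was highest with 153.7 and 183.1 in *s2lb-2* against 126 and 115.2 in WT (log2 fold change 0.47, limma adjusted p = 0.279). At an unadjusted p below 0.05, 4 of the 9 passed, where 17.4% of all genes tested did. Of these, 3 were lower in *s2lb-2*, where 8.9% of all genes were, and *LDL2* was higher. DESeq2 on recovered reads gave *PKDM7D*, a further JmjC-domain demethylase gene among the 3, an adjusted p of 0.0387, above the 0.01 threshold. Its adjusted p was 0.103 by limma and 0.0977 by the quasi-likelihood test of edgeR.

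Of 6 genes described as targets of these enzymes or of the flowering and stress pathways they act in, 5 had enough reads and 0 were called by limma. *FLC*, the repressor of flowering that ATX1 and ATXR7 are known to promote, had 8.87 and 19.7 normalized counts in *s2lb-2* against 79.8 and 69.7 in WT. Both *s2lb-2* libraries were far below WT, with a log2 fold change of -2.40 (SE 0.429), and limma gave an adjusted p of 0.0768. DESeq2 on recovered reads called *FLC* at the 0.01 threshold and the quasi-likelihood test of edgeR did not. *AG*, a flower organ gene known as a target of ATX1, had 11.8 and 8.27 in *s2lb-2* against 5.25 and 1.86 in WT (log2 fold change 1.37, limma adjusted p = 0.32). *ATX1* and *ATXR7* themselves had overlapping libraries, as given above, and a link between their levels and *FLC* was not tested.

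For each member, the gene of these lists with the most similar course over the 4 libraries was found by the root mean square difference of centred log2 values among 35 genes. *ATXR7* was nearest to *FLD* (0.0235), *ATX4* and *ATX1* to *ASH2R* (0.0299 and 0.0416), *ATX2* to *S2La* (0.0372) and *ATX3* to *ATXR1* (0.0441). *SDG2* was nearest to *SWN* (0.0551) and *ATX5* to *WDR5a* (0.0617). A gene with equal values in all 4 libraries would differ by 0.056 from *ATX4*, 0.0903 from *SDG2* and 0.179 from *ATX3*. With 4 libraries such nearness describes these values and no more, since all genes share the same libraries.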

How the data were processed

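RNA from *s2lb-2* and WT seedlings (2 libraries each) was sequenced as strand-specific 50-base single reads. The authors trimmed reads with trimmomatic, mapped them on TAIR10 with STAR 2.5.4b, counted reads per Araport11 gene and divided the counts by DESeq2 size factors, which gave the deposited signal, a normalized count. A second table holds their own comparison (mean, log2 fold change, error, Wald statistic, p-value and adjusted p) and was not used. Samples were grouped by title. There were 0 columns of other samples.

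The design foresaw normalized values. Genotypes were compared with limma 3.58.1 on log2(normalized count + 1) for genes with a mean of at least 1, with Benjamini-Hochberg adjustment over all 23723 genes and a threshold of 0.01. Whole reads were recovered from the normalized counts (100% of values whole within 1e-06) and tested with DESeq2 1.42.0 and edgeR 4.0.16. Replicates of a genotype came from different batches of seed, per the study's methods. Alternatives were other filters, pseudocounts, scalings, a replicate block and each library left out. The fits were also run on simulated counts drawn with the same spread setting for all genes, unlike the members, whose replicate spread differed. No result given here rests on that run. Positions and sequences came from TAIR10.1 (RefSeq), and alignments used Biopython 1.88.

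Members and lists were chosen with earlier results of these data known. The text names all members, *S2Lb*, *S2La*, list genes past the threshold, the highest and lowest gene of each list, and the nearest gene of each member. *JMJ15*, *PKDM7D*, *EXPA7*, *RBCS1A*, *CAB2*, the antisense neighbour AT5G53440 and the 2 genes that share words with *ATX3* were named after their values were seen.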

Additional observations from a re-analysis of the deposited data

How the results depend on the processing

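All settings called 0 of the 7 members. limma called 29 genes in all, with DESeq2 calling 704, DESeq2 with a replicate block 671, limma with a replicate block 663 and the threshold of 0.05 calling 379. Each library left out gave 0 calls (0 to 0), with 2533 to 3468 genes at an unadjusted p below 0.05. Same-numbered libraries deviated together with r = 0.178 over 23723 genes (0.407 over 17913 with a mean above 50). The study's methods give replicates of a genotype different seed batches, but no source says that a number marks a batch shared between genotypes. The blocked limma gave *SDG2* an adjusted p of 0.22. The log2 fold change of *ATX2* was -0.00092 with TMM factors, -0.04 without *s2lb-2* replicate 2 and -0.11 without WT replicate 1. That of *ATX1* was -0.035 without WT replicate 1, that of *ATX3* -0.14 without *s2lb-2* replicate 1 and that of *ATXR7* 0.016 without *s2lb-2* replicate 1. With 1 library left out, the ranges were -0.03 to 0.13 (*ATX1*), -0.11 to 0.12 (*ATX2*), -0.14 to 0.35 (*ATX3*) and -0.26 to 0.02 (*ATXR7*), while *SDG2* (0.17 to 0.19), *ATX4* (0.01 to 0.12) and *ATX5* (-0.32 to -0.02) kept their sign. The lone library of a genotype was then assumed to vary like the other genotype. The ratio of *ATX2* to *SDG2* was 1.11 ± 0.112 (SD, n = 4) by TPM and 1.30 by coding length, an alternative chosen after seeing the data. It was 1.06 to 1.14 with 1 library left out. The causes of these shifts were not tested.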
